A study of Homo sapiens with 6 samples.

Results

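The genes described here build and operate the mitotic spindle, attach chromosomes to it, separate sister chromatids and cut the cell into daughters. A set of 50 such genes was looked up in the authors' deposited table, which lists log ratios of MDA-MB-231 cells in which a hairpin targets LOXL2. Of these 50 genes, 40 were listed, and all 40 were higher in the shLOXL2 cells, with 0 lower. The genes were chosen from the measured values of this same comparison, so their direction and their number in the table are a description, with no test.

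MDA-MB-231 is an established human breast cancer line with mesenchymal features. A lentivirus brought in either a short hairpin RNA that targets LOXL2 (group shLOXL2) or a control one (group shControl), and total RNA was hybridised to 3 Affymetrix arrays for each group. Both groups therefore carry a lentivirus and a hairpin, and no uninfected cells, second LOXL2 hairpin or rescue is among the samples used here. The labels do not say whether the 3 arrays of a group came from separate cultures, and for 2 of the 3 control arrays the source name reads shLOXL2 while the title and the knockdown field give the control. LOXL2, a secreted enzyme that oxidises lysines of collagen and elastin, stood last in the authors' deposited table at -3.04. The direction of all other values, shLOXL2 over shControl, was read from that entry.

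At the onset of mitosis, cyclin-dependent kinase with cyclin B starts chromosome condensation and spindle assembly. Microtubules then bind kinetochores, protein assemblies on centromeric chromatin, and a checkpoint holds back the anaphase-promoting complex (APC/C) until every kinetochore is attached. Many genes of this machinery are transcribed late in the cell cycle. A DNA element known as the CHR, often together with CCAAT boxes that bind the factor NF-Y, lies in many of their promoters, where the DREAM complex represses them in resting cells and B-MYB with FOXM1 activates them in dividing cells.

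The median log ratio of the 40 listed genes was 0.76 in the authors' deposited table, and the middle 50% of them lay between 0.66 and 0.95. KIF20A had the highest value of the 40 in the authors' deposited table, 1.39, and KIF14 the lowest, 0.56. The header states no log base, but the values bear on it. Read as log2, the extremes of the authors' deposited table, 1.84 and -3.04, lie within the span of the group differences over all probe sets of the arrays, 1.93 to -3.08. Read as natural logs, the same extremes of the authors' deposited table would be 2.66 and -4.38 in log2, outside that span on both sides. The ratios were therefore read as log2, and the median of 0.76 in the authors' deposited table is then a 1.70-fold rise. Of 20037 protein-coding genes of the RefSeq annotation, 1.78% were listed higher in the authors' deposited table and 2.99% were listed in either direction. Because the choice of the 50 genes used these values, nothing is read from the gap between those shares and 40 of 50.

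The genes sat toward the top of the higher side. Their sizes and ranks are a description as well, because the choice of the genes used these values. Of the 363 genes listed higher in the authors' deposited table, 37 had a log ratio of 1 or more, and 9 of those 37 were among the 40. The median was 0.64 for the other 323 genes listed higher in the authors' deposited table, and 31 of the 40 lay above the median of all higher genes, 0.65. When the 412 higher entries of the authors' deposited table were ordered by size and cut into 4 blocks of 103, the blocks held 19, 12, 8 and 2 of the 41 entries of the 40 genes, from the top block down. KIFC1 accounts for the additional entry. The smallest size of any entry in the authors' deposited table was 0.54, which is just below the value of KIF14.

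**Figure D1:**
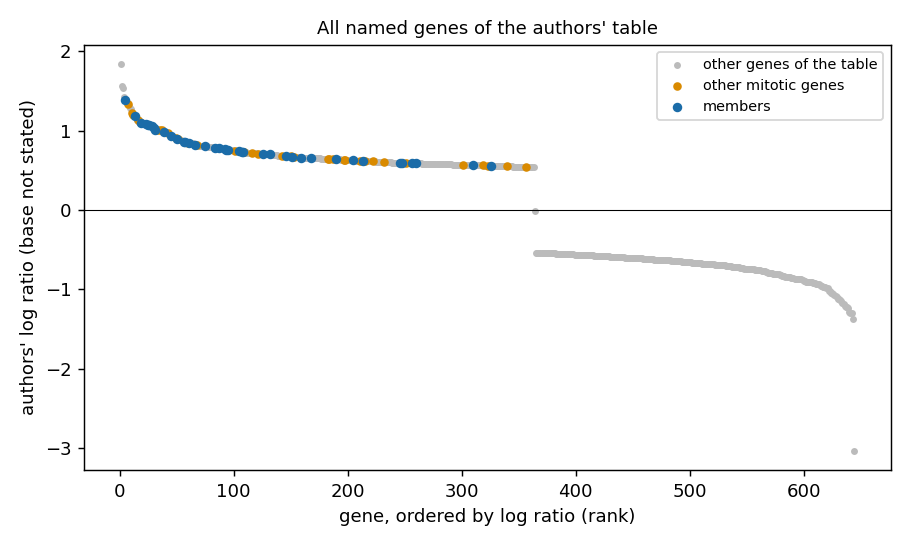
The 644 named genes of the authors' deposited table are ordered by log ratio, with the mitotic genes of the set in blue, other mitotic genes in orange and all remaining genes in grey. Every blue and orange point lies on the higher side, the single point near 0 is a gene with entries of both signs, and the lowest point is LOXL2 at -3.04.

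Promoter sequences are shown for 8 of the listed genes because they carry the shared feature that the choice of genes did not use. Each is a 300-base window from RefSeq on GRCh38.p14, from 250 bases before to 50 bases after the annotated transcription start, printed 5′ to 3′ on the strand of the gene. Capitals mark matches to the CHR (TTTGAA or TTCGAA, or TTCAAA, the reverse complement of TTTGAA) and to the CCAAT box (CCAAT, or its reverse complement ATTGG). The 8 are the genes with the highest log ratio among those with a CHR match in each of 6 functional classes, followed in the same class order by those with the lowest, up to 8 in all, which added KIF14 of the kinesins and BUB1 of the kinases.
KIF4A (chrX:70289854-70290153, plus strand): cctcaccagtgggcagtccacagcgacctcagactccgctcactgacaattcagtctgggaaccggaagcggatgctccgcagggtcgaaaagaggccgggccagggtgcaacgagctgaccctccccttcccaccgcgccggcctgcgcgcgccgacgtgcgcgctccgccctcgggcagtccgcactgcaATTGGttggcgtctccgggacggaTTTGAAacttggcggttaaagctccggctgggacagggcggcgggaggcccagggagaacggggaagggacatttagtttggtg
PLK1 (chr16:23678639-23678938, plus strand): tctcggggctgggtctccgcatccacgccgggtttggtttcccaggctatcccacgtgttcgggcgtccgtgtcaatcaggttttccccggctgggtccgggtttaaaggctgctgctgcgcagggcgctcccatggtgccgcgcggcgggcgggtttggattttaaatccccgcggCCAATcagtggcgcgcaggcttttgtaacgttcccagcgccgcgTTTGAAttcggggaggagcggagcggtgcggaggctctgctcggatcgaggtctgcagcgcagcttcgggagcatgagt
CDCA8 (chr1:37692266-37692565, plus strand): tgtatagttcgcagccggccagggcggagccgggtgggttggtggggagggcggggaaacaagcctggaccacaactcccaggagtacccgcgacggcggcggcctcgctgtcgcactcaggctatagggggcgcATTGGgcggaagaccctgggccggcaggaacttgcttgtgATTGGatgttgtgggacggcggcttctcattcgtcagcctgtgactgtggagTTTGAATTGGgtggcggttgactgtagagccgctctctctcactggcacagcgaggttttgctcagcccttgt
SMC4 (chr3:160399400-160399699, plus strand): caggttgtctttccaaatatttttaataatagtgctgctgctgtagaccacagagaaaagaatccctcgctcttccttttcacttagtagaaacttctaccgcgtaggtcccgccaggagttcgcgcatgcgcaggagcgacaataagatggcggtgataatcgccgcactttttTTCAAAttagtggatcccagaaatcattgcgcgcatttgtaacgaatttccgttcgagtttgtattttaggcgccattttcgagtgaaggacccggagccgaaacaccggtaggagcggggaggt
NUSAP1 (chr15:41332631-41332930, plus strand): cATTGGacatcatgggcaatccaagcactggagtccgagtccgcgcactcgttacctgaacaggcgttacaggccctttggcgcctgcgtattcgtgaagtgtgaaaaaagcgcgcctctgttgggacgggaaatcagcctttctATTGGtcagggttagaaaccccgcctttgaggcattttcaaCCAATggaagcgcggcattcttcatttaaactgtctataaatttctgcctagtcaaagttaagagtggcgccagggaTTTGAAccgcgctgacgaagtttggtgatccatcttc
CEP55 (chr10:93496362-93496661, plus strand): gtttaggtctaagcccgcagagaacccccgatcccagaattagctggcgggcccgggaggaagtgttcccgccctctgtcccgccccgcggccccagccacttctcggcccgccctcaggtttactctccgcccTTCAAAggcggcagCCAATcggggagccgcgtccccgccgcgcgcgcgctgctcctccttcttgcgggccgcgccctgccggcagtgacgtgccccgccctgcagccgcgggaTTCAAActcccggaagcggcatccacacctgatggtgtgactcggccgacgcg
KIF14 (chr1:200620702-200621001, minus strand): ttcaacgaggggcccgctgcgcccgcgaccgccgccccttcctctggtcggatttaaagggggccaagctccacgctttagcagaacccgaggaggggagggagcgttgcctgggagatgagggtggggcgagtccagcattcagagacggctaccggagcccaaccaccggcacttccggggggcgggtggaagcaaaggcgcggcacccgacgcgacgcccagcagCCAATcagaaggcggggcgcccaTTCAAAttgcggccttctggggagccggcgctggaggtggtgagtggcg
BUB1 (chr2:110678014-110678313, minus strand): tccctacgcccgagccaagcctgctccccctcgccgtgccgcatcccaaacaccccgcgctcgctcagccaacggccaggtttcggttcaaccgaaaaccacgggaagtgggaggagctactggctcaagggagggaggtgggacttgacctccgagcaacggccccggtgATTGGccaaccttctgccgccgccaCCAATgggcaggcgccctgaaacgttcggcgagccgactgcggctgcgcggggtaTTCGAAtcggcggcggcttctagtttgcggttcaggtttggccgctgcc

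In KIF4A, PLK1 and CDCA8 the CHR match begins 34, 29 and 23 bases before the transcription start, counted with the first transcribed base as 1. A CCAAT match lies upstream of it in each, beginning at -58 in KIF4A, -73 in PLK1, and -115 and -75 in CDCA8. The CDCA8 window also has a CCAAT match on the reverse strand at -18 that shares letters with the CHR, which starts at -23 and reads on into it. BUB1 and KIF14 have the CHR match 2 bases into the transcript, with CCAAT at -79 and -54 in BUB1 and at -22 in KIF14. The BUB1 match has the letters TTCGAA. NUSAP1 has its match at 14, CEP55 has matches at -116 and -3, and SMC4 has one at -75 and no CCAAT match.

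Windows were available for 34 of the 40 listed genes, and these had 37 windows in all, since SMC4, ECT2 and PTTG1 have several annotated starts. AURKA, BIRC5, CDCA2, FAM83D, PBK, RACGAP1, TPX2, TTK and UBE2C, of which 6 are listed genes, had no window. A CHR match on either strand was present in 28 of the 37 windows, 75.7% (95% exact binomial interval 58.8% to 88.2%). Among all 22199 windows of protein-coding genes the share was 13.7%. Counted per gene, the shares were 79.4% of the 34 listed genes and 17.5% of protein-coding genes. The difference is a description without a test, because mitotic genes were assembled by function and the CHR was known from such genes beforehand.

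Among mitotic genes outside the set, the share with a CHR match was also higher where the gene was listed, again without a test. These 160 further genes were drawn from the same classes and from regulators of mitosis. Where the gene was listed, 23 of 34 windows (67.6%) had a CHR match, against 49 of 173 (28.3%) where it was not. The unlisted ones include core APC/C, cohesin and septin genes. Whether listed and unlisted genes differ in their timing in the cell cycle was not examined. For genes of the set that were not listed, 5 of 9 windows (55.6%) had one. Counted per gene, the shares were 71.4% for those 5 of 7 unlisted genes, near the 79.4% of the listed ones, and 71.4% against 39.3% for further genes listed and not listed. All other genes of the authors' deposited table had one in 13.2% of 661 windows, close to the 13.7% of all protein-coding genes. The windows of the listed genes had a median GC content of 61.3%, against 62.3% for protein-coding genes.

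CCAAT boxes were common in the same windows. A CCAAT match was present in 26 of 37 windows of the listed genes (70.3%) against 34.7% of protein-coding windows, and at least 2 matches were present in 45.9% against 11.4%. Windows with both a CHR and a CCAAT match made up 56.8% of those of the listed genes and 5.48% of all protein-coding ones, and the matches overlapped in 1 window, that of CDCA8. The TATA box, TATAAA on either strand, was present in 2 of 37 windows (5.41%) and in 9.47% of protein-coding windows.

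**Figure D2:**
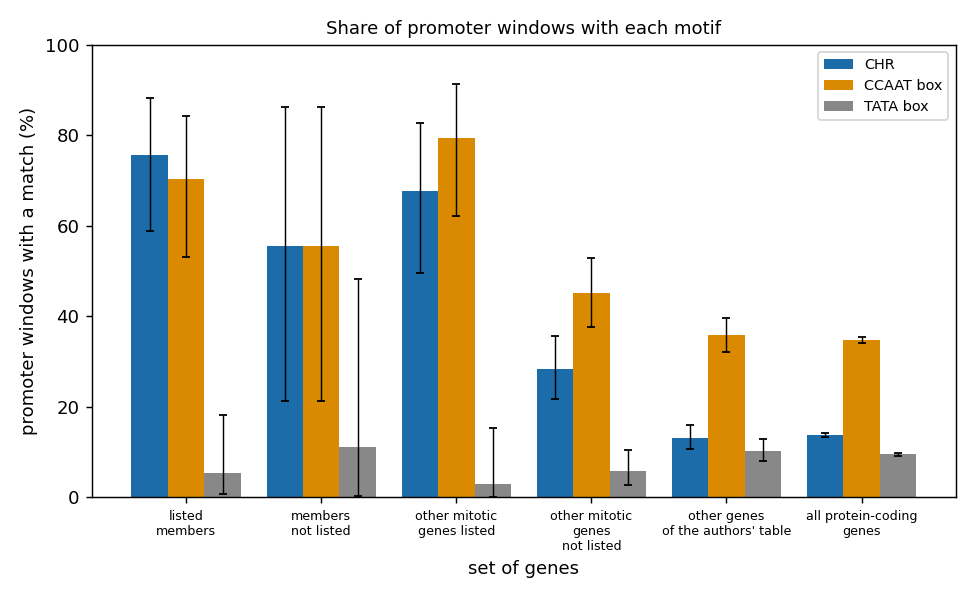
Bars give the percentage of 300-base promoter windows with a CHR, CCAAT or TATA match in 6 sets of genes, and error bars are exact 95% binomial intervals over windows. The CHR bar is 75.7% in listed genes of the set and 13.7% in all protein-coding genes, and the TATA bars are low throughout.

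Most CHR matches of the listed genes lay near the transcription start. From 100 bases before to 50 after it, 67.6% of their windows had a match, against 5.81% of protein-coding windows. Over whole windows these shares were 75.7% and 13.7%. Single positions in other promoters were not compared. The windows of the listed genes held 38 CHR matches, 36 of them TTTGAA and 2 TTCGAA. The median first base was at -21, with a range of -247 to 41. Of the 38, 27 began within 50 bases of the start. The 57 CCAAT matches had a median first base at -75. For 23 CHR matches a CCAAT match lay upstream in the same window, with a median of 38 bases between their first bases. A match in overlapping windows of a single gene was counted once for each window, as happened with a CHR match of ECT2 and with the CCAAT matches of PTTG1. The intervals over windows treat such windows as independent.

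**Figure D3:**
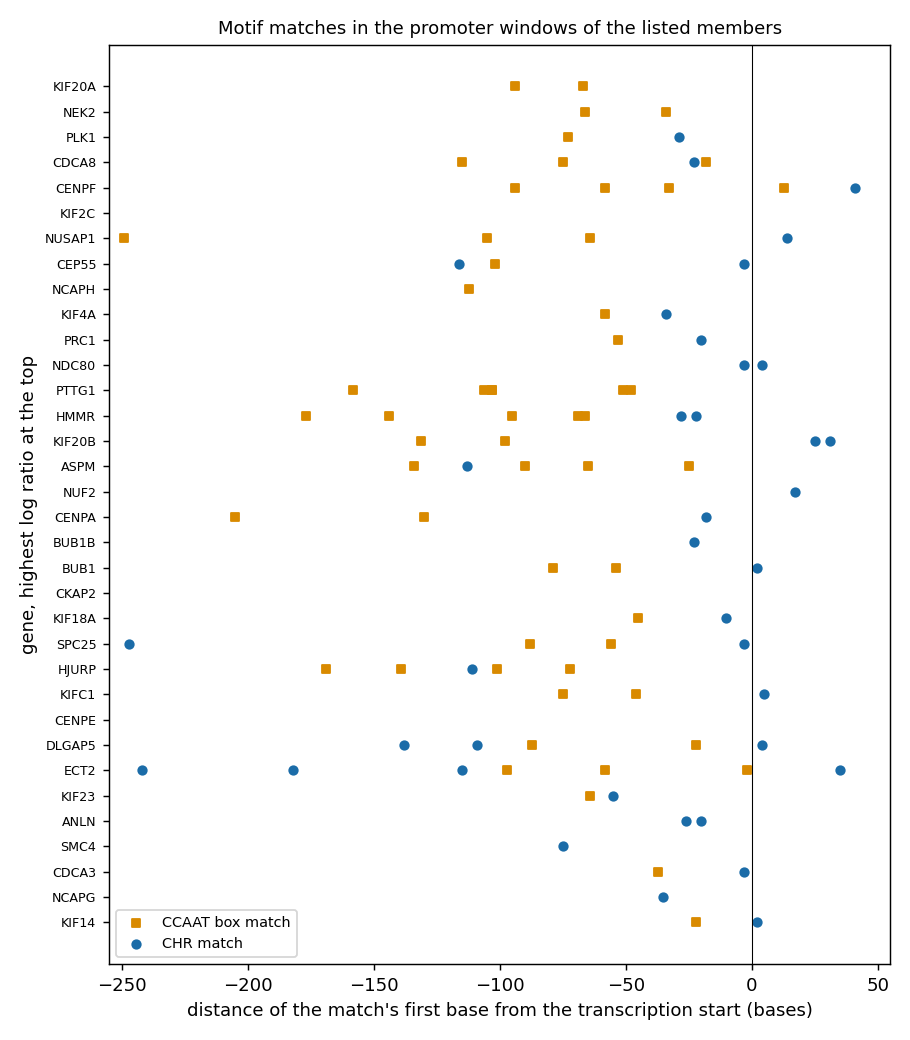
Each row is a listed gene with a promoter window, from the highest log ratio at the top to the lowest at the bottom. Circles (CHR) and squares (CCAAT box) mark the first base of each match by its distance in bases from the transcription start, and most circles lie within 50 bases of the start with squares to their left.

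By class, CHR matches were present in 6 of 8 windows of kinesin genes, 3 of 4 of the kinases, 7 of 8 of the centromere and kinetochore genes, 3 of 7 of the condensin and separation genes, 4 of 5 of the spindle assembly genes and 5 of 5 of the cytokinesis genes. Counted per gene, 3 of 5 condensin and separation genes and 4 of 4 cytokinesis genes had a match, and the other classes were unchanged. Among the genes with a window, KIF20A and NEK2 had the highest values and no CHR match. In the authors' deposited table, the 27 genes with a CHR match had a median log ratio of 0.76 and a range of 0.56 to 1.10. The 7 without one, KIF20A, NEK2, KIF2C, NCAPH, PTTG1, CKAP2 and CENPE, had a median of 0.94 and a range of 0.66 to 1.39 in the authors' deposited table. No match says only that these letters are not in this window.

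Kinesins are motor proteins that move along microtubules or take them apart, and 8 of the 9 kinesin genes of the set were listed. KIF20A, a motor needed at the central spindle for cytokinesis, stood at 1.39 in the authors' deposited table and held rank 5 among all its entries. KIF2C, which depolymerises microtubules at centromeres and corrects faulty attachments, followed at 1.06 in the authors' deposited table. The chromosome-arm motor KIF4A, which also limits the length of the central spindle, was at 0.90 in the authors' deposited table. Between these and the lower end lay KIF20B at 0.79 and KIF18A, which dampens chromosome movements on the metaphase plate, at 0.71 in the authors' deposited table. The minus-end motor KIFC1, which clusters extra centrosomes in cancer cells, had entries of 0.70 and 0.64 and a mean of 0.67 in the authors' deposited table. KIF23, the motor subunit of centralspindlin, had 0.62 and KIF14, a partner of citron kinase at the midbody, 0.56 in the authors' deposited table. The motors of cytokinesis thus spanned the whole range of the class. KIF11, the motor that pushes spindle poles apart, was not listed.

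Mitotic kinases and checkpoint genes had the highest class median in the authors' deposited table, 1.04, with 6 of 10 listed. NEK2, a kinase that loosens the link between centrosomes before mitosis, was at 1.18 in the authors' deposited table. PLK1, which acts in centrosome maturation, kinetochore attachment and cytokinesis, was at 1.10 in the authors' deposited table. PBK, a kinase active in mitotic cells, had 1.07, and TTK, the kinase that starts checkpoint signalling at unattached kinetochores, had 1.02 in the authors' deposited table. A gap separated these 4 from the remaining pair. BUB1B, which encodes the checkpoint protein BUBR1, had 0.76, and the checkpoint kinase BUB1 had 0.74 in the authors' deposited table. CDC20, the activator of the APC/C that the checkpoint holds back, was not listed, nor were AURKA, the kinase of spindle poles, PLK4, the kinase of centriole duplication, and MELK.

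Of 10 genes of the centromere, the kinetochore and the chromosomal passenger complex, 8 were listed, with a median of 0.76 in the authors' deposited table. CDCA8 encodes borealin, which helps to bring Aurora B kinase to centromeres, and stood at 1.09 in the authors' deposited table. CENPF, a large kinetochore protein that accumulates before mitosis, was next at 1.08 in the authors' deposited table. Subunits of the Ndc80 complex, the main coupler of kinetochores to microtubules, followed, with NDC80 at 0.86, NUF2 at 0.76 and SPC25 at 0.70 in the authors' deposited table. The centromeric histone CENPA had 0.76 and its chaperone HJURP had 0.68 in the authors' deposited table. The lowest of the class in the authors' deposited table was the kinetochore motor CENPE, 0.66. BIRC5, which encodes survivin of the passenger complex, and CENPI, a subunit of the inner kinetochore, were not listed.

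**Figure D4:**
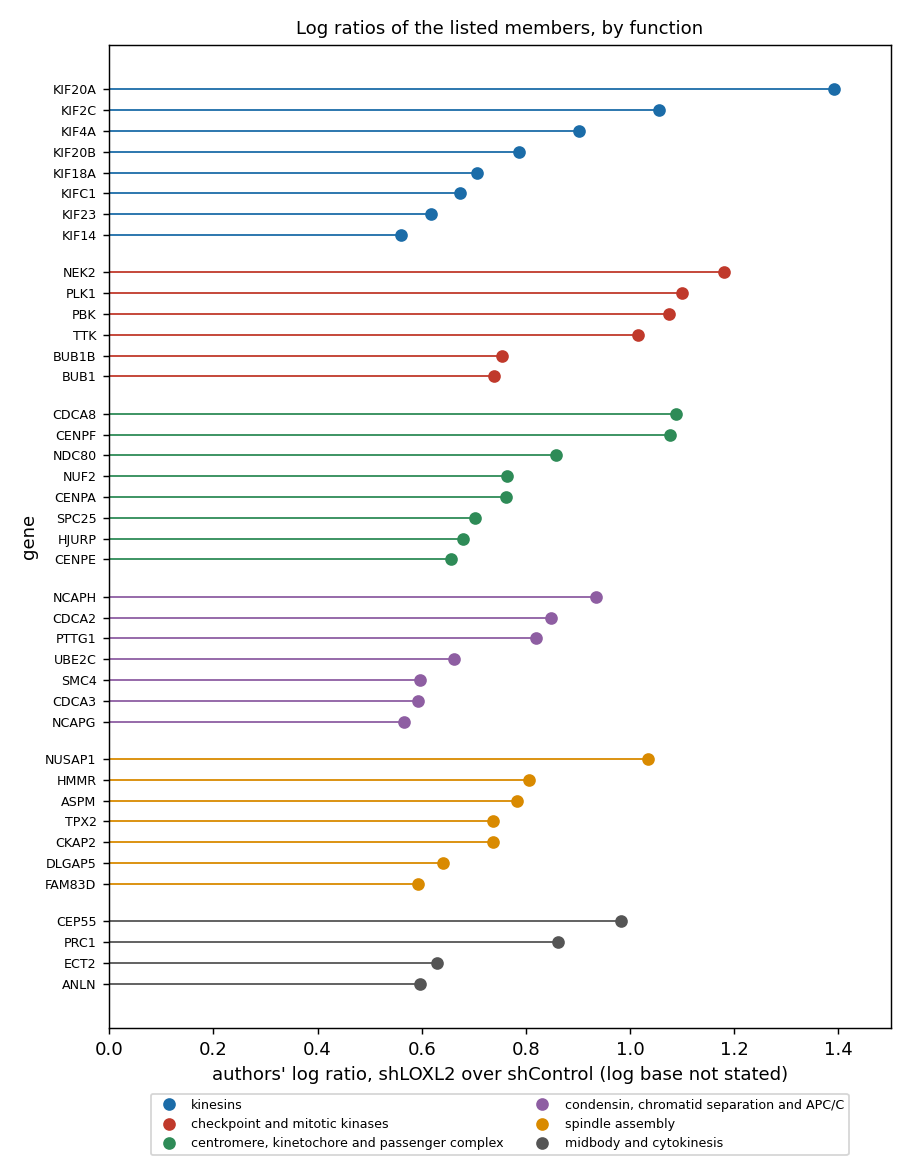
Each line and point is the authors' log ratio of a listed gene, coloured by functional class; the deposited values have no replicate error. The 40 values run from 0.56 for KIF14 to 1.39 for KIF20A, and 4 of the 6 kinase and checkpoint genes lie above 1.

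Genes of chromosome condensation, chromatid separation and the APC/C pathway had the lowest class median in the authors' deposited table, 0.66, although 7 of 8 were listed. NCAPH, the kleisin subunit of condensin I, had 0.94 in the authors' deposited table. The other condensin genes were lower, with SMC4, the ATPase shared by both condensins, at 0.60 and NCAPG, another condensin I subunit, at 0.57 in the authors' deposited table. CDCA2, which targets phosphatase PP1 to chromosomes, had 0.85, and PTTG1, which encodes securin, the inhibitor of separase, had 0.82 in the authors' deposited table. UBE2C, a ubiquitin-conjugating enzyme of the APC/C, had 0.66 and CDCA3 had 0.59 in the authors' deposited table. None of the 7 reached 1. TOP2A, the topoisomerase that untangles sister chromatids, was not listed.

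Spindle assembly genes had a median of 0.74 in the authors' deposited table, and 7 of 8 were listed. NUSAP1, a microtubule-bundling protein that binds spindle fibres near chromatin, was at 1.04 in the authors' deposited table and was the only gene of the class above 1. HMMR, a spindle pole protein that also binds hyaluronan, had 0.81 in the authors' deposited table. ASPM, which focuses spindle poles and is mutated in microcephaly, had 0.78 in the authors' deposited table. TPX2, the activator of Aurora A on spindle microtubules, and CKAP2 each had 0.74 in the authors' deposited table. DLGAP5, a stabiliser of kinetochore fibres, had 0.64 and FAM83D, which recruits casein kinase to the spindle, had 0.59 in the authors' deposited table. GTSE1, a microtubule-binding protein that restrains KIF2C, was not listed.

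For cytokinesis, 4 of 5 genes were listed, with a median of 0.75 in the authors' deposited table. CEP55, which brings the abscission machinery to the midbody, was the highest at 0.98 in the authors' deposited table. PRC1, the crosslinker of antiparallel microtubules in the central spindle, had 0.86 in the authors' deposited table. ECT2, the exchange factor that activates RhoA at the cleavage plane, had 0.63, and ANLN, the scaffold anillin of the contractile ring, had 0.60 in the authors' deposited table. RACGAP1, the partner of KIF23 in centralspindlin and the anchor of ECT2, was not listed.

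The 10 genes not listed thus came from all 6 classes, and their older symbols were not found either. How the authors' deposited table selected its entries is not stated. A missing gene may have changed by less than the smallest size listed, may have varied too much between arrays or may not have been measured, and these cannot be told apart here.

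Beyond the set of 50, the 160 further mitotic genes give a wider view. Of these, 35 (21.9%) were listed, all 35 higher, with a median of 0.68 and a range of 0.54 to 1.34 in the authors' deposited table. The background share listed higher was again 1.78% of protein-coding genes. The list was drawn up with results of these data known, so its count is a description too. Among these further genes, regulators of the mitotic programme had the highest class median in the authors' deposited table, 1.00, with 9 of 28 listed. These were the cyclin CCNB2 at 1.34, CKS2 at 1.22, the kinase CDK1 at 1.20, HMGB2 at 1.13, the phosphatase CDC25C at 1.00, the transcription factor FOXM1 at 0.97, the cyclin CCNB1 at 0.89, CKS1B at 0.74 and the tubulin gene TUBB4B at 0.57 in the authors' deposited table. The cyclins CCNB1 and CCNB2, their kinase and the phosphatase that activates it were therefore listed on the same side as the 40 genes.

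Within the classes, 3 of 7 further kinesins were listed, KIF15 at 0.67, KIF24 at 0.62 and KIF18B at 0.61 in the authors' deposited table. Of 17 further kinases and checkpoint genes 2 were listed, AURKB at 0.63 and WEE1, the inhibitor of CDK1, at 0.62 in the authors' deposited table. The centromere and kinetochore class had 7 of 37, with SKA2 at 1.01, CENPN at 0.91, KNL1 at 0.71, ZWINT at 0.68, SPC24 and CENPU at 0.56 each and SGO1, the protector of centromeric cohesion, at 0.55 in the authors' deposited table. Condensation and separation had 4 of 31, namely ESCO2, CDCA5 and MKI67 at 0.65 each and UBE2S at 0.63 in the authors' deposited table. Spindle assembly had 5 of 24, with SPAG5 at 0.85, TACC3 at 0.74, HAUS1 at 0.72, CKAP2L at 0.61 and PSRC1 at 0.54 in the authors' deposited table. Cytokinesis had 5 of 16, with DEPDC1 at 1.11, PIMREG at 1.01, DEPDC1B at 0.82, CIT, which encodes citron kinase, at 0.68 and TROAP at 0.59 in the authors' deposited table. Aurora B, the kinase that CDCA8 helps to place, had 0.63 in the authors' deposited table, lower than CDCA8 at 1.09.

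Grouped by complex, with the genes outside the set counted in, listing was uneven. All 4 subunits of the Ndc80 complex were listed (NDC80, NUF2, SPC24 and SPC25), and 0 of 4 subunits of the neighbouring Mis12 complex. Of 15 genes counted for the constitutive centromere network, which stays on centromeres through the cell cycle, 2 were listed, CENPN and CENPU. ITGB3BP, which encodes a further subunit, was left out of the 15 and was not listed. Condensin I had 3 of 5 genes listed, the subunits particular to condensin II 0 of 3, the cohesin ring 0 of 5 and the core APC/C subunits of the list 0 of 11. A further APC/C subunit outside that list, ANAPC16, deposited under the ID APC16, had 0.55 in the authors' deposited table. The kinesin-6 family (KIF20A, KIF20B and KIF23) was listed 3 of 3. Of kinesin-8, only KIF18A and KIF18B were looked up, and these were listed 2 of 2. Kinesin-13 had 2 of 4, augmin 1 of 8, the Ska complex 1 of 3 and the passenger complex 2 of 4, AURKB and CDCA8. The grouping into complexes was made after the values had been seen, and no difference between complexes was tested.

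**Figure D5:**
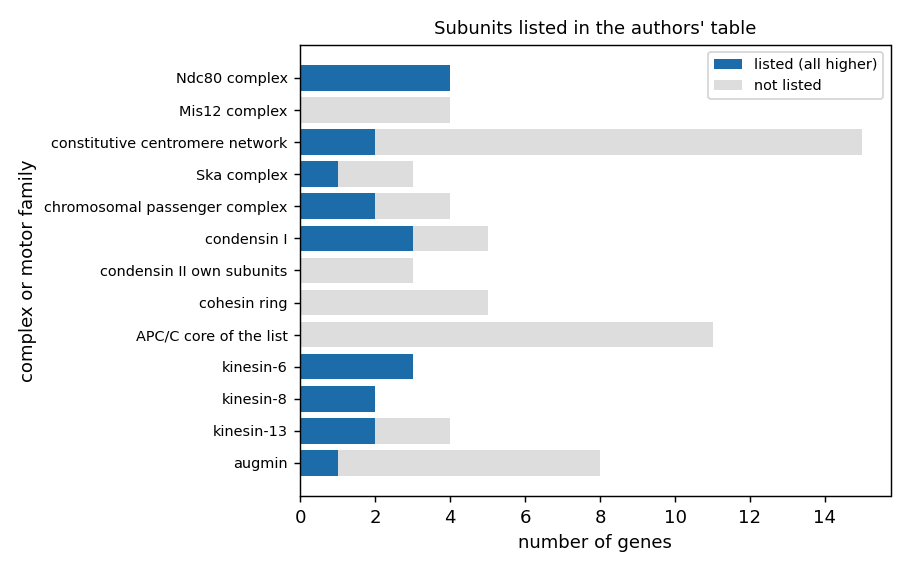
Bars count the genes of each complex or motor family that were listed in the authors' deposited table (blue, all higher) or not listed (grey). The Ndc80, kinesin-6 and kinesin-8 bars are fully blue, and the Mis12, condensin II, cohesin and APC/C bars are fully grey. The kinesin-8 bar counts KIF18A and KIF18B only, and the APC/C bar leaves out ANAPC16, which was listed.

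The listed genes were spread over the genome. The 40 lay on 18 chromosomes, with 7 on chromosome 1, 5 on chromosome 2 and 4 on chromosome 15. An immediate neighbour was also listed higher in the authors' deposited table for 2 of the 40 (5.0%), PBK beside ESCO2 and ANLN beside MATCAP2. The share was 5.06% for 316 other genes listed higher in the authors' deposited table and 3.50% for all protein-coding genes. In the annotation columns of the authors' deposited table, 26 of the 40 (65.0%) were placed in the nucleus, against 29.3% of the other genes with a higher entry, and 6 (15.0%) were typed as kinases, against 4.32%. The set was assembled by function, with mitotic kinases and centromere proteins among its classes, so these shares describe that choice.

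No value per array can be given for any of these genes. The array values identify 32321 probe sets by number alone, with nothing that pairs the numbers with genes, so markers of cell type or of contaminating cells could not be checked either. The spread between arrays was instead examined over all probe sets. Array medians lay between 5.74 and 5.82 on the log2 scale, and arrays correlated at 0.977 to 0.991 across probe sets. A limma fit across all probe sets called 1 of them (0.00309%), lower in shLOXL2 with an adjusted p of 0.0126, and 0 higher, while 1781 of the 32321 had an unadjusted p under 0.05 (2964 with the replicate number as a block). Without any difference between groups, p falls under 0.05 at a rate of 0.05, so these counts are not read as numbers of changed probe sets.

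A mean log2 difference as large as the log ratios of the 40 genes, 0.56 to 1.39, was found for 536 probe sets on the higher side (1.66%) and for 616 on the lower side with the sign turned (1.91%). Read as log2, the 40 genes of the authors' deposited table lie in this band of differences. Which side held more depended on the scaling and on the probe sets kept. Counts were 627 higher and 542 lower after centring each array on its median, and 569 on each side after quantile normalization. On the deposited scale, dropping a leading run of 4090 nearly consecutive numbers left 427 higher and 367 lower. Keeping only probe sets above the median mean level left 372 higher and 317 lower. Of the 536, 236 (44.0%) had all 3 shLOXL2 arrays above all 3 shControl arrays. By limma, 273 (50.9%) of the 536 had an unadjusted p under 0.05. On the lower side, 291 of the 616 had all 3 shLOXL2 arrays below all 3 shControl arrays. Of these 616, 355 had an unadjusted p under 0.05 in limma. Each band was picked for large differences, so high shares are partly built in. Among all 32321, limma gave 1781 an unadjusted p under 0.05, and separation of the arrays was not counted for them. None of the 536 was called after Benjamini-Hochberg adjustment in limma, the lowest adjusted p being 0.547. The median standard error of a difference in this band was 0.30. With the replicate number as a block, 451 of the 536 had an unadjusted p under 0.05 in limma and again 0 were called. With 3 arrays a group, no probe set with a difference of the size listed for the 40 genes passed the adjusted threshold.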

How the data were processed

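RNA of 6 array samples was purified on RNeasy columns, amplified and labelled with a whole-transcript system, as the labels' protocols state. Array values are log2 values deposited by the authors, made with RMA per the submitters' processing notes. The sources used here do not give its version, the build or the probe annotation. The log ratios are, per the file header, an export from Ingenuity software made by the authors. Log base, direction and selection are not stated there, and the ratios were read as log2. A leading question mark was read as minus, which left the 724 entries in falling order with 0 breaks. Symbols were matched to RefSeq (GRCh38.p14), naming 682 entries of 644 genes, and entries of a gene were averaged. Letters lost from some IDs touch no gene of the set of 50.

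The 50 genes and all lists were chosen with earlier results of these data known. Every gene of the set is named, as is each further mitotic gene that was listed; windows shown follow the rule given beside them. Groups follow the sample titles. The planned limma fit on named genes was not possible, so limma 3.58.1 under R 4.3.3 took all probe sets, with group as the only term and an adjusted p threshold of 0.05, after a run on simulated data. P-values cover the spread among these arrays alone, possibly a technical one. Same-numbered arrays deviated together (correlations of 0.354, 0.452 and 0.160), which meets the rule for pairs, though the labels state no pairing. The fit without the block, as planned, gives the main counts, and the blocked counts stand beside them. Motifs were searched on both strands in Python 3.11.15, with intervals from scipy 1.17.1. The alternatives varied symbol matching, log base, array normalization, the probe sets kept, arrays, window, strand and background. The number of arrays limits the precision.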

Additional observations from a re-analysis of the deposited data

How the results depend on the processing

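The count of 40 listed genes and their median did not depend on the symbol column or on how entries were averaged, and 31 remained when entries below the table's median size were dropped. Read as natural logs, which puts its extremes outside the span of the array differences, the median of the authors' deposited table would be 2.14-fold instead of 1.70-fold. The call of 1 probe set by limma rests on every array: leaving out any array gave 0 calls (with 1063 to 2250 of the 32321 at p under 0.05 before adjustment). With shControl replicate 1 as the lone control, the spread of the control group is not measured, so only the size of the differences is given below. At an adjusted p under 0.01, limma on all 6 arrays gave 0 calls (1781 of the 32321 at an unadjusted p under 0.05). With replicate number as a block the paired fit gave 1 call and 2964 probe sets at an unadjusted p under 0.05. The band of 536 probe sets held 527 to 904 when an array was left out, reaching 904 without shLOXL2 replicate 2 and then 893 on leaving out shControl replicate 2. With the lone control the band held 1871. That setting has fewer arrays in a mean and also leaves out the 2 controls whose source name reads shLOXL2. Neither was tested as the reason. The matching lower band of 616 held 636 to 1148 when an array was left out, most without shControl replicate 3, and 963 on leaving out shLOXL2 replicate 2. The median of the 3 same-numbered differences, chosen after seeing the data, gave 577. The CHR share of the background, 13.7%, was 13.2% in other genes of the authors' deposited table, 16.4% in all windows of the promoter table, 5.81% in windows from 100 bases before the start, 8.35% on the gene's strand alone and, counted per gene (chosen after seeing the data), 17.5%, against 62.2% to 79.4% for the listed genes under these searches. The CCAAT share of the listed genes fell from 70.3% to 48.6% on the gene's strand alone. Its background, 34.7%, was 35.9%, 22.02%, 19.2% and 42.1% in other table genes, the shorter window, on the gene's strand and per gene. A planned search for protein degradation motifs was not run, because no protein sequences were used here.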

Other observations

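Some IDs of the authors' deposited table had lost the letters NA, and 12 were read back against RefSeq symbols. CC2 had 0.91 in the authors' deposited table and matched both CCNA2, the A-type cyclin, and NACC2, so it stays unnamed. No symbol of the 50 genes contains these letters.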
